A study of Rattus norvegicus with 8 samples.

Results

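The interleukin 1 genes described here are ligands (Il1a, Il1b, Il33 and Il18), receptors (Il1r1, Il1r2, Il1rap and Il1rl1) and the receptor antagonist Il1rn. They were picked by gene symbol from a table of 15590 genes measured in rat Achilles tendon. Of the 9 genes, 8 had a row, 7 passed the filter on low values, and Il1rn did not. Il1a had no row, so its level is not analysed here, and only its start-site region is described. The filter asked for at least 0.5 FPKM (fragments per kilobase of transcript, scaled to sequencing depth, which makes it a level per length) in at least 4 of the 8 libraries.

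Polyadenylated RNA came from the right Achilles tendons of wild-type male Sprague-Dawley rats aged 8 to 10 weeks. In the 0 h p.r. (post-run) group, 4 libraries came from rats killed right after 1 h of uphill running on a treadmill. The NC (naïve control) group held 4 libraries of rats that stayed in their cages at normal activity. Besides running, the 0 h p.r. rats met an airflow and, if they fell behind, a mild electric stimulus. Neither can be told apart from the running. The labels have the controls killed immediately, while the methods of the study have them killed with a later post-run group, so the time of killing cannot be told apart from the groups either. The libraries held 10663512 to 17470961 recovered reads in the listed genes. NC replicate 2 had the highest mitochondrial share of FPKM (31.1%, against 16.3% to 21.9% elsewhere). All 8 tenocyte markers examined were tested, none passed the thresholds given below, and their summed level was 3777 to 7451 FPKM in NC and 4154 to 7450 FPKM in 0 h p.r.

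Interleukin 1 signalling starts when IL-1α or IL-1β binds the receptor IL1R1, which then recruits the accessory protein IL1RAP and the adaptor MyD88. IL1R2 binds the same ligands without signalling and acts as a decoy, and the antagonist encoded by Il1rn occupies IL1R1 without recruiting the accessory protein. IL-1β and IL-18 are made as inactive precursors that caspase-1 cleaves in the inflammasome. IL-33 is kept in the nucleus, is released from damaged cells, and signals through IL1RL1 with IL1RAP. In cultured tendon cells, added IL-1β is known to induce matrix metalloproteinases, inflammatory cytokines and prostaglandin synthesis.

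The start-site regions of 3 of these genes are shown because they carry the contrasts described below. Il1b is the member that differed most between the groups, Il33 is the most abundant ligand, and Il1r1 is the most abundant receptor. Each is a window from 250 bases before to 50 bases after the annotated start, given by RefSeq on the gene's strand of build GRCr8 and found by symbol. Il1b lies at chr3:137036532-137036831 (minus strand), Il33 at chr1:237134696-237134995 (plus strand) and Il1r1 at chr9:50034133-50034432 (plus strand). Il33 had 2 windows, and the one with matches to the motifs searched is shown. Capitals mark these matches.

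Il1b: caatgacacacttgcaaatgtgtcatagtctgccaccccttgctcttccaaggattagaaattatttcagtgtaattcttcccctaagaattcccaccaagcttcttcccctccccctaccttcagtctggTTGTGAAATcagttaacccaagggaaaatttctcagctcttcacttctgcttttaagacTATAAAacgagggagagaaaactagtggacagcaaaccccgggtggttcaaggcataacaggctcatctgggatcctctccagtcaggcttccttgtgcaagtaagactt

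Il33: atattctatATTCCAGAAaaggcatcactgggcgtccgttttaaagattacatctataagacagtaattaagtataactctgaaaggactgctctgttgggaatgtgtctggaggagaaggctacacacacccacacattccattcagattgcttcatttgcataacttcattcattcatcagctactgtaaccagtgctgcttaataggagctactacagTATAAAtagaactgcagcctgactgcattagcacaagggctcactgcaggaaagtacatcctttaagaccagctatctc

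Il1r1: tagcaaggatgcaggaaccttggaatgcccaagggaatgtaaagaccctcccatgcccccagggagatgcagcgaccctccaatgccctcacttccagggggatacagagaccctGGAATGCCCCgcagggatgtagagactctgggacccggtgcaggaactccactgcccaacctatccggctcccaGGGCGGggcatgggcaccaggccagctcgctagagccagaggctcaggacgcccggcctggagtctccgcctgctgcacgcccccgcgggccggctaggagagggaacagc

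In the Il1b window the capitals are a C/EBP motif (TTNNGNAAT) at -119 to -111 and a TATA motif (TATAAA) at -60 to -55, counted from the annotated start. In the Il33 window they are a C/EBP motif on the opposite strand at -241 to -233 and a TATA motif at -29 to -24. The Il1r1 window held neither, and its capitals are the NF-kB consensus on the opposite strand at -135 to -126 and a GC box (GGGCGG) at -61 to -56. No matches overlapped in these windows. The other motifs searched were AP-1 (TGANTCA) and the cAMP response element (TGACGTCA). Of all 33469 windows, searched on both strands, 14.2% held the TATA motif, 12.3% the C/EBP motif, 33.1% the GC box, 4.18% the NF-kB consensus, 7.33% the AP-1 motif and 1.83% the cAMP response element. Windows were matched for 8 of the 9 genes, all but Il1r2 and with Il1a among them. TATA and C/EBP motifs occurred together in a window of Il1b, of Il33 and of Il1rn, and in 2.88% of all windows. That share counts windows and not genes, and the Il33 window that is not shown held none of the motifs. Il1a and Il1rl1 held a TATA motif without the C/EBP motif. GC boxes occurred in Il1r1, Il1rl1 and Il1rap. The NF-kB consensus occurred in Il1r1 and in both windows of Il1rap, and the AP-1 motif in Il1a and Il18. The share of G and C was 45.3% for Il1b, 41.0% for Il33 and 65.3% for Il1r1, with a median of 51.7% over all windows. These letters describe the windows only.

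The resting tendon was examined first. The NC libraries had Il33 as the most abundant of the 8 genes, with 64.2 ± 11.2 FPKM (SD, n = 4), followed by Il1r1 with 23.5 ± 1.93 FPKM. The ranges of Il33 and Il1r1 did not overlap in NC. Il18 (3.61 ± 1.07 FPKM) and Il1rap (3.51 ± 0.620 FPKM) came next and overlapped each other. Below them were Il1r2 (1.55 ± 0.399 FPKM), Il1rl1 (0.950 ± 0.17 FPKM), Il1b (0.580 ± 0.258 FPKM) and Il1rn (0.250 ± 0.107 FPKM), and each of these overlapped its neighbour in the order. The level of Il1b in NC stood at the 12.2 percentile of all listed genes, and that of Il33 at the 93.1 percentile. After running, the first places were again held by Il33 (61.1 ± 9.96 FPKM) and Il1r1 (34.7 ± 6.71 FPKM), and Il1b was the third at 6.26 ± 1.78 FPKM. Il1b, Il18, Il1rap and Il1r2 overlapped neighbour by neighbour in 0 h p.r.

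**Figure D1:**
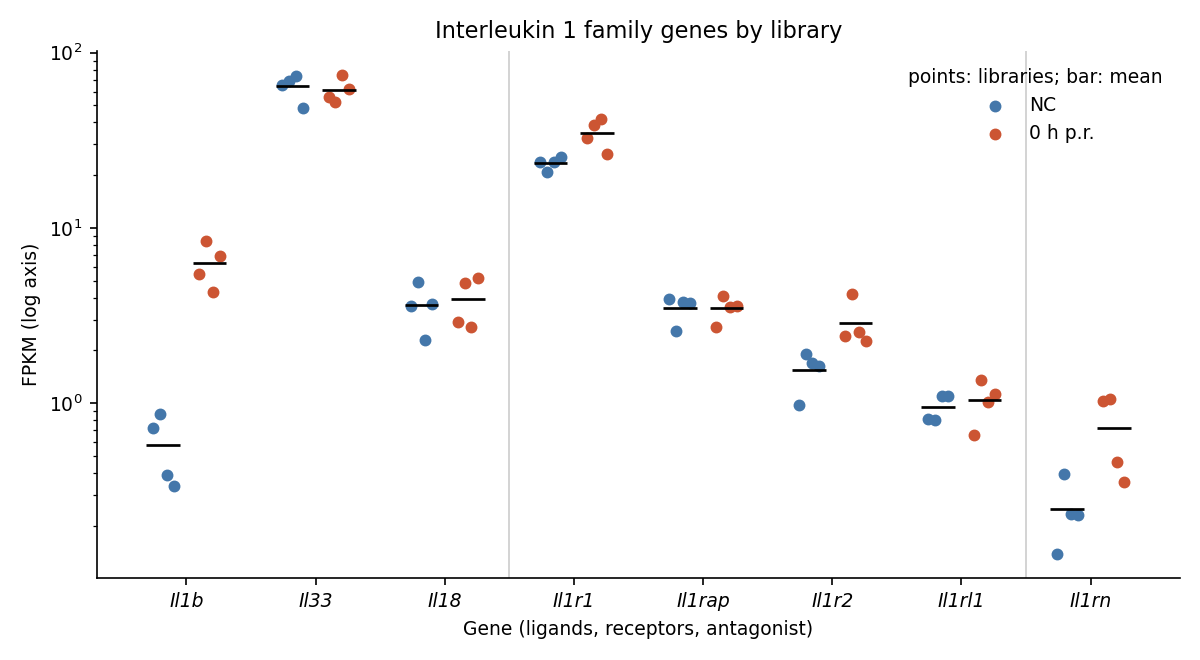
FPKM of each interleukin 1 gene in the 4 NC and 4 0 h p.r. libraries on a log axis, with ligands at the left, receptors in the middle and the antagonist at the right. Points are libraries and bars are group means. The Il1b points lie between 0.337 and 0.868 FPKM in NC and between 4.30 and 8.41 FPKM in 0 h p.r., while the Il33 points of the groups overlap.

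The comparison of 0 h p.r. with NC asked which interleukin 1 genes differ after running. A gene passed both thresholds at a limma adjusted p under 0.05 (Benjamini-Hochberg over the 13863 tested genes) and a fold change of at least 2. Of the 7 tested members, 1 passed both, Il1b, and it was higher after running. Of all tested genes, 2.70% passed both thresholds, 1.80% as higher in 0 h p.r. and the rest as lower. At the adjusted p alone, 5.72% of all tested genes passed, and among the members again only Il1b. The median log2 fold change of the 7 members was 0.09, beside -0.0014 for all tested genes.

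Il1b (ENSRNOG00000004649), the inducible ligand, was at 0.725, 0.868, 0.390 and 0.337 FPKM in the 4 NC libraries. In 0 h p.r. it was at 5.44, 8.41, 4.30 and 6.90 FPKM. All runner libraries lay above all NC libraries, and the lowest of them was several times the highest control. The mean FPKM was 10.8 times as high in 0 h p.r. The log2 fold change, taken after 0.5 was added to each FPKM and so damped in genes of low level, was 2.64 with a standard error of 0.24 (limma adjusted p 0.000886, higher in 4 of 4 libraries). The NC values rested on 18, 12, 8 and 7 recovered reads, against 101, 213, 77 and 174 in 0 h p.r. The log2 fold change depended on how low values were handled, from 2.18 with a pseudocount of 1 to 3.49 in voom on the recovered reads. The adjusted p stayed between 0.000874 and 0.00655 in all 17 alternatives. In NC only replicates 1 and 2 reached the 0.5 FPKM of the filter, so Il1b passed it through the runner libraries. With no filter its limma adjusted p was 0.000971.

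**Figure D2:**
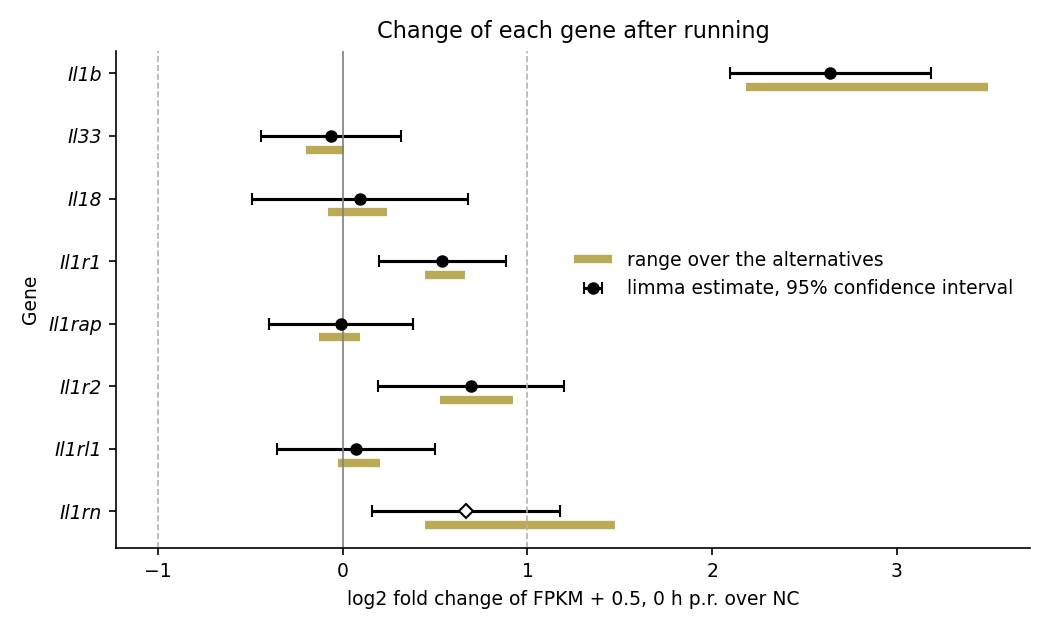
Log2 fold change of FPKM + 0.5 in 0 h p.r. over NC for each gene, with its 95% confidence interval in limma (black) and the range over the alternative settings (yellow); dashed lines mark a fold of 2, and the open diamond is Il1rn, fitted without the filter. The interval of Il1b runs from 2.09 to 3.18, while those of Il33, Il18, Il1rap and Il1rl1 include 0.

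The other ligands did not pass the test. Il33 (ENSRNOG00000016456), the nuclear alarmin, was at 65.7, 69.2, 73.7 and 48.0 FPKM in NC and at 55.7, 52.2, 74.9 and 61.7 FPKM in 0 h p.r. The groups overlapped throughout, and the log2 fold change was -0.06 with a 95% interval of -0.44 to 0.32 (limma adjusted p 0.876). Il18 (ENSRNOG00000009848), the other caspase-1 substrate, was at 3.58, 4.91, 2.30 and 3.67 FPKM in NC and at 2.91, 4.87, 2.71 and 5.17 FPKM in 0 h p.r. Its groups overlapped too, with a log2 fold change of 0.09 and a 95% interval of -0.49 to 0.68 (limma adjusted p 0.884). For both ligands the 95% interval excluded a fold of 2 in either direction.

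Within each library, the make-up of the ligand transcripts was therefore compared as a description, since FPKM are per length. Il1b was 0.511% to 1.16% of the summed FPKM of Il1b, Il33 and Il18 in NC and 5.26% to 12.8% in 0 h p.r. Il33 was the main ligand transcript in all 8 libraries, with 92.3% to 96.5% in NC and 79.7% to 91.4% in 0 h p.r. Il18 exceeded Il1b in every NC library, at ratios of 4.93 to 10.9. In every 0 h p.r. library it was below Il1b, at ratios of 0.535 to 0.749.

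Among the receptors, Il1r1 and Il1r2 had groups that did not overlap but did not pass the test. Non-overlapping groups were found for 15.6% of all tested genes and for 3 of the 7 members, Il1b included. Il1r1 (ENSRNOG00000014504), the signalling receptor, was at 23.8, 20.8, 23.8 and 25.5 FPKM in NC and at 32.5, 38.5, 41.6 and 26.4 FPKM in 0 h p.r. The runner libraries were all higher, but 0 h p.r. replicate 4 lay close to the highest control. The log2 fold change was 0.54 with a standard error of 0.15 and a 95% interval of 0.20 to 0.88 (limma adjusted p 0.0727). Without 0 h p.r. replicate 4 the limma adjusted p was 0.0216 at a log2 fold change of 0.66, still under a fold of 2, and over the other alternatives it ranged up to 0.397. Il1r1 rested on 816 to 2760 recovered reads per library.

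Il1r2 (ENSRNOG00000014378), the decoy receptor, was at 0.977, 1.89, 1.70 and 1.63 FPKM in NC. In 0 h p.r. it was at 2.40, 4.17, 2.55 and 2.27 FPKM. The highest value, in 0 h p.r. replicate 2, stood apart from the remaining runner libraries. The log2 fold change was 0.70 with a standard error of 0.22 and a 95% interval of 0.19 to 1.20 (limma adjusted p 0.104), and it was 0.52 without that library (limma adjusted p 0.234). Over its alternatives the adjusted p ranged from 0.0822 to 0.293. Il1r2 rested on 25 to 109 recovered reads per library.

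Il1rap (ENSRNOG00000001928), the accessory protein shared by the IL-1 and IL-33 receptors, was at 3.94, 2.59, 3.75 and 3.74 FPKM in NC and at 2.70, 4.09, 3.52 and 3.59 FPKM in 0 h p.r. The groups overlapped, and the log2 fold change was -0.01 with a 95% interval of -0.40 to 0.38 (limma adjusted p 0.986). Il1rl1 (ENSRNOG00000014835), the IL-33 receptor, was at 0.809, 0.797, 1.09 and 1.10 FPKM in NC and at 0.657, 1.35, 1.01 and 1.12 FPKM in 0 h p.r. The runner libraries spanned the whole range of the controls, and the log2 fold change was 0.07 with a 95% interval of -0.36 to 0.50 (limma adjusted p 0.880). The direction of Il1rap, Il1rl1, Il33 and Il18 turned when some of the libraries were omitted, and that of Il1rap also under quantile normalization.

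Il1rn (ENSRNOG00000005871), the receptor antagonist, was under the filter and was fitted without it. It was at 0.138, 0.396, 0.234 and 0.231 FPKM in NC and at 1.03, 1.05, 0.459 and 0.353 FPKM in 0 h p.r. The groups overlapped only through 0 h p.r. replicate 4, which lay below the highest control, and 3 of the 4 runner libraries were above all controls. The mean FPKM was 2.90 times as high in 0 h p.r., and the log2 fold change was 0.67 with a standard error of 0.23 (limma adjusted p 0.129). The values rested on 27 recovered reads over NC and 92 over 0 h p.r., and voom on these reads gave a log2 fold change of 1.47 (limma adjusted p 0.155). Over its alternatives the adjusted p ranged from 0.0569 to 0.288. The study, in contrast, lists Il1rn with the differentially expressed genes of a biological process enriched right after running. That listing also holds Mmp13, whose change the study describes as not significant over the transcriptome. The listing alone therefore does not show which thresholds Il1rn met in the authors' comparison.

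The ligand was then set against its inhibitors in the same library, with no test since the ratios contain the change of Il1b. The ratio of Il1b to Il1r2 was 0.206 to 0.742 in NC and 1.69 to 3.04 in 0 h p.r., so that the decoy transcript was above Il1b in every control and below it in every runner. The ratio of Il1b to Il1rn was 5.26, 2.19, 1.67 and 1.46 in NC and 5.27, 7.98, 9.38 and 19.6 in 0 h p.r. NC replicate 1 nearly reached the lowest runner, and its Il1rn value rested on 5 recovered reads. The ratio of Il1r1 to Il1r2 overlapped between the groups (median 14.8 in NC and 12.6 in 0 h p.r.). So did Il1r1 to Il1rap (6.03 to 8.06 in NC and 7.37 to 12.0 in 0 h p.r.) and Il33 to Il1rl1 (43.7 to 86.9 in NC and 38.6 to 84.8 in 0 h p.r.).

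**Figure D3:**
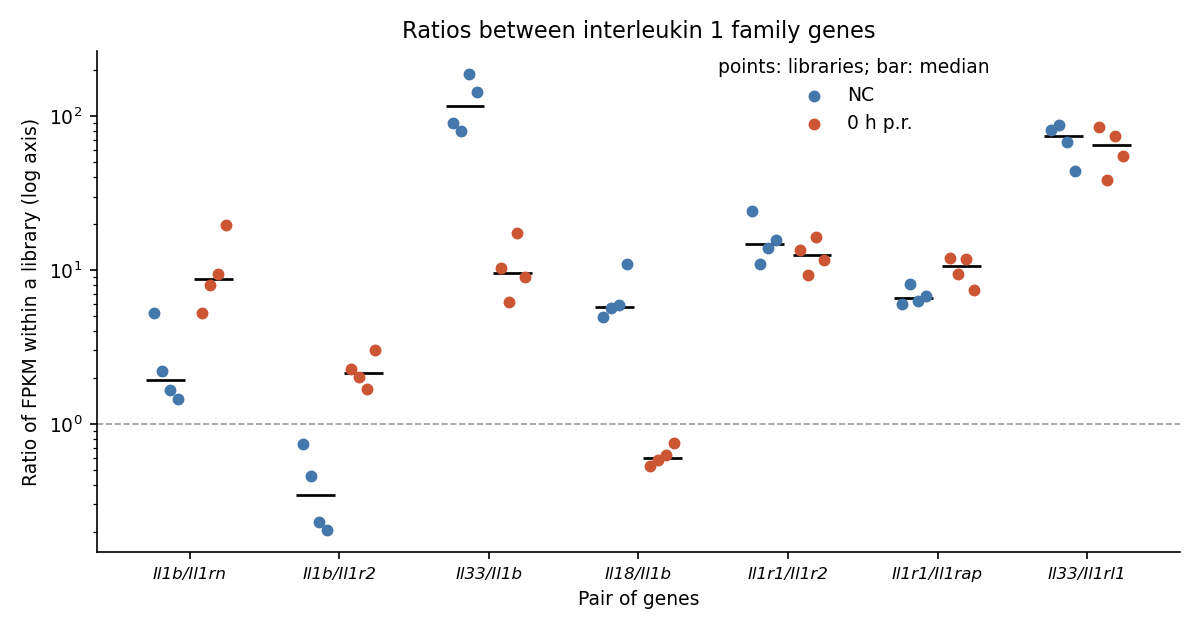
Ratio of the FPKM of pairs of interleukin 1 genes within each library on a log axis, with points for the 4 NC and 4 0 h p.r. libraries, bars for the group medians and a dashed line at equal levels. The Il18 to Il1b ratio is above the dashed line in every NC library and below it in every 0 h p.r. library, and the Il33 to Il1rl1 ratios of the groups overlap.

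Several of these genes are neighbours in the genome. In RefSeq build GRCr8, whose coordinates are not used for the values, the protein-coding genes of chromosome 9 run in the order Il1r2, H3f3al3, Il1r1, Il1rl2, Il1rl1 and Il18r1. Along this order the log2 fold changes were 0.70 for Il1r2, 0.54 for Il1r1, 0.36 for Il1rl2 (the IL-36 receptor, limma adjusted p 0.336) and 0.07 for Il1rl1, none of them past the thresholds. The order of these sizes depended on the pseudocount, since Il1rl2 was at 0.444 ± 0.157 FPKM in NC. With a pseudocount of 0.1, Il1rl2 was at 0.58 and Il1r1 at 0.55, and in voom on recovered reads at 0.62 and 0.55. Il18r1, a receptor subunit for IL-18, was under the filter at 0.259 ± 0.0900 FPKM in NC and 0.266 ± 0.0458 FPKM in 0 h p.r. On chromosome 3, Il1b is next to Il1a.

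Markers of the cells that could carry these transcripts were measured in the same libraries. In bulk tissue, fewer cells of a type and less RNA per cell cannot be told apart. Over all tested genes, 2.70% passed both thresholds, 5.72% the adjusted p alone, and 15.6% had groups that did not overlap. Of 8 macrophage markers, all tested, none passed both thresholds, and their summed level was 165 to 282 FPKM in NC and 154 to 294 FPKM in 0 h p.r. C1qa and C1qb weigh most in this sum, with means of 102 and 72.3 FPKM in NC. By log2 fold change, 3 of the 8 were higher and 5 lower. The lowest was Cd163, at 15.2 ± 4.57 FPKM in NC and 7.30 ± 3.64 FPKM in 0 h p.r. (-1.09, limma adjusted p 0.0982, with groups that overlapped). Of 9 neutrophil markers 4 had a row and their sum was 1.44 to 4.67 FPKM in NC and 1.51 to 2.24 FPKM in 0 h p.r. S100a9, a calcium-binding protein of myeloid cells, rose from 0.362 ± 0.257 to 1.49 ± 0.298 FPKM (limma adjusted p 0.0192). Mpo, the myeloperoxidase of granulocytes, fell from 1.88 ± 0.835 to 0.339 ± 0.0914 FPKM (limma adjusted p 0.0146), and Cxcr2 and Csf3r were under the filter. S100a9 lost its call when NC replicate 3 (adjusted p 0.0571) or 0 h p.r. replicate 1 (0.0553), 2 (0.0713) or 3 (0.0632) was omitted. Mpo lost its call when 0 h p.r. replicate 2 (adjusted p 0.0512) or 3 (0.0513) was omitted. With equal FPKM totals both calls were lost (adjusted p 0.0550 for S100a9 and 0.0548 for Mpo), and with a pseudocount of 1 that of S100a9, at a log2 fold change of 0.88. None of the 5 tested mast cell markers, the 7 tested endothelial markers or the 1 tested lymphocyte marker passed both thresholds. In limma 1 mast cell and 1 endothelial marker had an adjusted p under 0.05 at a fold under 2, with groups that did not overlap. Kit, the stem cell factor receptor of mast cells, was at 4.41 ± 0.598 FPKM in NC and 2.18 ± 0.414 FPKM in 0 h p.r. (log2 fold change -0.88, limma adjusted p 0.0187). By log2 fold change, 3 of the 5 tested mast cell markers were higher and 2 lower, Kit included, with a median of 0.02. Egfl7, a protein secreted by endothelial cells, was at 57.5 ± 7.87 FPKM in NC and 97.2 ± 14.7 FPKM in 0 h p.r. (log2 fold change 0.75, limma adjusted p 0.0270). The other 6 tested endothelial markers had log2 fold changes below 0, and the median of the list was -0.04. The adjusted p of Kit was over 0.05 when NC replicate 3 or any runner library but the fourth was omitted (0.0520 to 0.0587) and with equal FPKM totals (0.126). That of Egfl7 was over 0.05 when NC replicate 1 or 3 or any of the same runner libraries was omitted (0.0672 to 0.0950) and with equal FPKM totals (0.104). Of 2 tested keratinocyte markers 1 passed, Sfn, which rose by a log2 fold change of 1.05 (limma adjusted p 0.0281). The other, Krt10, had a log2 fold change of -0.26 (limma adjusted p 0.440). Krt1 was under the filter, at a mean of 0.434 FPKM in NC and 0.323 FPKM in 0 h p.r. Sfn lost its call when any library but the fourth replicate of each group was omitted (adjusted p 0.0552 to 0.0888), with equal FPKM totals (0.120) and with a pseudocount of 1 (log2 fold change 0.88).

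Markers of other tissues were measured in the same way. The 8 adipocyte markers had sums of 3028 to 6179 FPKM in NC and 966 to 2238 FPKM in 0 h p.r. Both thresholds were passed by 5 of them, all lower, beside 2.70% of all tested genes in either direction. Of these, Retn kept its call whichever library was omitted (adjusted p up to 0.0373). Adipoq, Lep and Cfd lost theirs when any library but the fourth replicate of each group was omitted (adjusted p 0.0533 to 0.105). Cidec lost its call when NC replicate 1 (adjusted p 0.0700) or 2 (0.0591) or 0 h p.r. replicate 2 (0.0785) or 3 (0.0706) was omitted. With equal FPKM totals, 1 of the 5 calls was kept, that of Retn, and those of Adipoq (adjusted p 0.0703), Lep (0.0627), Cidec (0.0550) and Cfd (0.0609) were lost. The 6 listed skeletal muscle markers summed to 4041 to 6164 FPKM in NC and to 848 to 27978 FPKM in 0 h p.r., and none passed. The part of these tissues in the values of the interleukin 1 genes was not tested.

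Downstream of the receptor, 2 of 19 tested signalling genes passed both thresholds, both higher, and the list's median log2 fold change was 0.28. Over all tested genes, 2.70% passed both thresholds, and 1.80% passed as higher. Irak2, a kinase-like protein of the receptor complex, was at 4.93, 3.22, 5.32 and 4.63 FPKM in NC and at 13.2, 14.9, 13.3 and 13.7 FPKM in 0 h p.r. The groups were far apart, with a log2 fold change of 1.52 and a standard error of 0.15 (limma adjusted p 0.00151). Map3k8, a kinase upstream of ERK, rose from 3.21 ± 0.495 to 7.82 ± 2.45 FPKM, at a limma adjusted p of 0.0202 and a log2 fold change of 1.13. Its call was lost in 5 of the 17 alternatives, among them the fits without NC replicate 3 (adjusted p 0.0583), without 0 h p.r. replicate 2 (0.0600) and without 0 h p.r. replicate 3, where the log2 fold change was 0.95. The tested signalling gene with the lowest log2 fold change was Tab1, a partner of the kinase TAK1, at 7.73 ± 0.847 FPKM in NC and 4.87 ± 0.567 FPKM in 0 h p.r. (log2 fold change -0.62, limma adjusted p 0.0335, under a fold of 2). Its adjusted p was over 0.05 without any library but the fourth replicate of each group (0.0502 to 0.102) and with equal FPKM totals (0.255). Myd88, the adaptor, was chosen after its values were seen. It was at 18.1 ± 1.82 FPKM in NC and 28.2 ± 3.53 FPKM in 0 h p.r. (log2 fold change 0.62, limma adjusted p 0.0270, under a fold of 2). Its adjusted p was over 0.05 without NC replicate 1 (0.0791), 3 (0.0725) or 4 (0.0659) or 0 h p.r. replicate 2 (0.0978) or 3 (0.0817), and with equal FPKM totals (0.193).

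Of 13 tested genes of the inflammasome and of ligand processing, none passed both thresholds, beside 2.70% of all tested genes. In limma, 1 had an adjusted p under 0.05, beside 5.72% of all tested genes, and the median log2 fold change was -0.26. That gene was Txnip, a thioredoxin-binding protein, at 705 ± 107 FPKM in NC and 403 ± 31.3 FPKM in 0 h p.r. (log2 fold change -0.80, limma adjusted p 0.0304). Its adjusted p was over 0.05 without NC replicate 1 (0.0958) or 4 (0.0553) or 0 h p.r. replicate 1 (0.0785), 2 (0.109) or 3 (0.0704), and with equal FPKM totals (0.0631). The highest log2 fold change, 0.44, was that of Casp8, an initiator caspase, at 5.01 ± 1.05 FPKM in NC and 6.90 ± 0.921 FPKM in 0 h p.r. (limma adjusted p 0.161). Casp1, the enzyme that cleaves the precursors of IL-1β and IL-18, was chosen after its values were seen. It was at 14.7, 20.8, 11.7 and 12.6 FPKM in NC and at 7.17, 8.42, 9.48 and 10.1 FPKM in 0 h p.r. The runner libraries were all below the controls, at a log2 fold change of -0.71 (limma adjusted p 0.0622). Of the further family members, 5 of 16 had a row and 3 were tested (Il18bp, Il1rl2 and Sigirr), and none passed. Il1rl2 had the highest log2 fold change among them and Sigirr, an inhibitory receptor, the lowest (-0.13, limma adjusted p 0.651).

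Of 19 tested genes known to respond to IL-1 in cultured cells, 11 passed both thresholds, all higher, and the median log2 fold change was 1.12. The study itself names several of them as inflammatory genes of these samples, so this count is not independent evidence of a direction. The cytokine gene Il6 had a log2 fold change of 5.49, and the chemokine genes Ccl7, Ccl2, Cxcl1 and Cxcl2 had 3.64, 3.33, 3.31 and 2.22. The sizes for Il6 and Cxcl2 depended on the pseudocount, since Il6 had at most 5 reads in a control library and Cxcl2 was at 0 in NC replicates 2, 3 and 4. For Il6 the log2 fold change was 4.67 with a pseudocount of 1, 7.06 with 0.1 and 7.66 in voom on recovered reads. For Cxcl2 it was 1.58, 3.93 and 5.05 in the same settings, so that its place among the chemokine genes changed (Ccl7 was at 3.40, 3.89 and 3.98). The hyaluronan synthase gene Has1 had a log2 fold change of 3.61. Regulators of NF-kB signalling or of inflammatory mRNA were Nfkbiz (2.02), Zc3h12a (1.36) and Tnfaip3 (1.12). The endothelial adhesion genes Sele and Icam1 had log2 fold changes of 1.40 and 1.07. The limma adjusted p of these 11 genes was between 0.000299 and 0.0264. The tested gene of this list with the lowest log2 fold change was the matrix metalloproteinase gene Mmp3, at 31.3 ± 17.6 FPKM in NC and 22.9 ± 9.21 FPKM in 0 h p.r. (-0.38, limma adjusted p 0.614). Mmp13 and the prostaglandin synthase gene Ptgs2, both reported as raised by the study, were higher by mean. Mmp13, not tested, was at 0.273 ± 0.198 FPKM in NC and 1.01 ± 0.834 FPKM in 0 h p.r. Ptgs2 was at 0.386 ± 0.126 FPKM in NC and 1.23 ± 0.519 FPKM in 0 h p.r. (log2 fold change 0.92, limma adjusted p 0.0709, with groups that overlapped). Sod2, the mitochondrial superoxide dismutase, was chosen after its values were seen. It was at 49.9 ± 2.21 FPKM in NC and 92.8 ± 17.7 FPKM in 0 h p.r. (log2 fold change 0.87, limma adjusted p 0.0132, under a fold of 2). Its adjusted p was over 0.05 with equal FPKM totals (0.0713).

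Some calls of the IL-1 responsive list were lost with 1 library fewer while the log2 fold changes moved little. Tnfaip3 lost its call when any of 6 libraries was omitted, all but the fourth replicate of each group, with limma adjusted p of 0.0477 (at a log2 fold change of 0.98, without NC replicate 2) to 0.0901 (at 1.01, without 0 h p.r. replicate 2). The call of Sele was lost without NC replicate 1 (adjusted p 0.0618), NC replicate 3 (0.0563) or 0 h p.r. replicate 3 (0.0587), at log2 fold changes of 1.28, 1.34 and 1.27. That of Cxcl2 was lost when NC replicate 3 (adjusted p 0.0501) or 0 h p.r. replicate 1 (0.0502) was omitted, at log2 fold changes of 2.17 and 2.06. When libraries were scaled to equal FPKM totals, the calls of Tnfaip3 (adjusted p 0.133), Map3k8 (0.125), Icam1 (0.0631) and Zc3h12a (0.0567) were lost. That of Icam1 was also lost under quantile normalization, where the log2 fold change was 0.99.

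**Figure D4:**
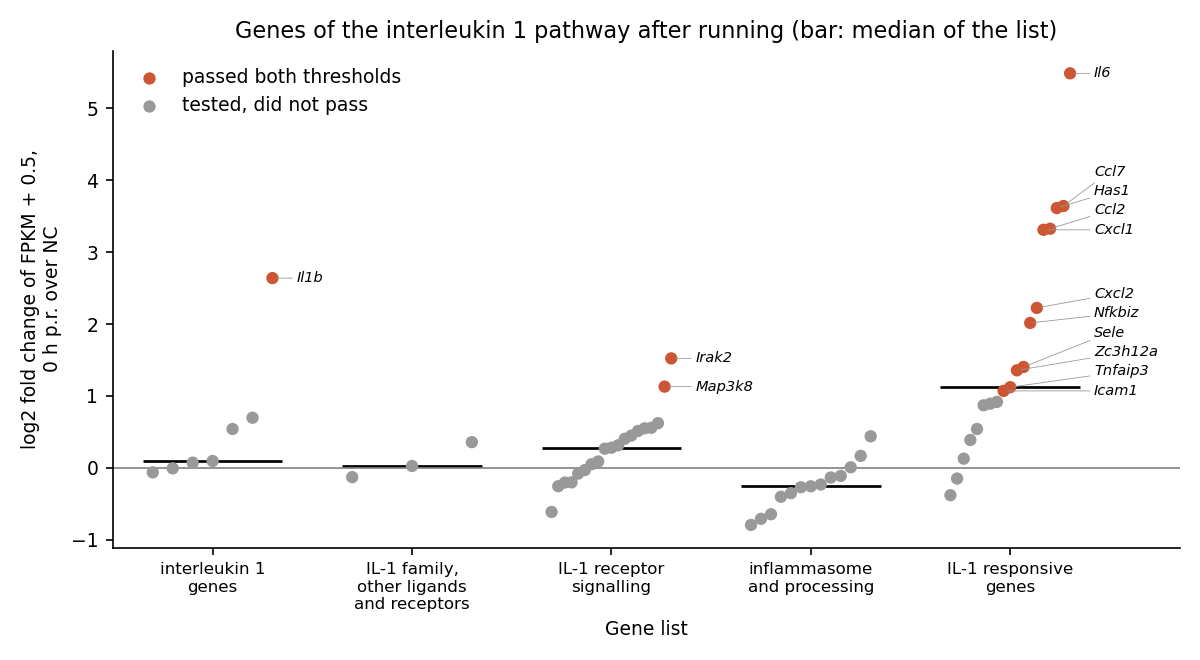
Log2 fold change of FPKM + 0.5 in 0 h p.r. over NC for each tested gene of the interleukin 1 genes and of 4 pathway lists, sorted within a list, with orange points for genes past both thresholds and a bar for the median. Il1b stands alone among the interleukin 1 genes, and 11 genes of the responsive list lie above a log2 fold change of 1.

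The genes whose levels followed Il1b most closely over the 8 libraries were taken by Pearson's r of the log2 values, as a description of libraries that fall into 2 groups. They were Ch25h (cholesterol 25-hydroxylase) with r of 0.99, Cd83 (a surface protein of activated antigen-presenting cells) with r of 0.98 and Mex3c (an RNA-binding ubiquitin ligase) with r of 0.97. After the group means were subtracted, r was 0.80 for Ch25h, 0.79 for Cd83 and 0.43 for Mex3c. Ch25h was at 1.70 ± 0.375 FPKM in NC and 5.76 ± 1.09 FPKM in 0 h p.r.. Cd83 was at 3.09 ± 0.582 FPKM in NC and 9.77 ± 2.42 FPKM in 0 h p.r.. Mex3c had a log2 fold change of 0.71, under a fold of 2. These differences are a description with no test, since the choice by r fixed their direction.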

How the data were processed

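Per the labels and the study's methods, the authors purified mRNA by its poly(A) tail, used a stranded kit, mapped reads with HISAT2 2.1.0 to the rat build Rnor_6.0, counted them per gene with featureCounts 1.6.3 and normalised with DESeq2 1.30.1. The deposited table gives FPKM for each library, and also log2 fold changes, p-values and adjusted p-values of the authors' own comparison, which were not used. Whole reads were recovered from the steps between FPKM values (whole within 0.02 reads in all 8 libraries for 99.99% of 15590 genes). The reads cover counting error only.

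Groups and replicate numbers came from the sample titles. The labels name no animal, so p-values measure the spread between these libraries. Genes with at least 0.5 FPKM in at least 4 libraries (13863) were fitted as log2(FPKM + 0.5) with limma 3.58.1 in R 4.3.3 (eBayes with trend, two-sided, no covariate, Benjamini-Hochberg). On simulated reads for this comparison, with a fold of 4, the fit ran on 13950 genes, called 94.8% of 194 changed genes, and 6.12% of its calls were unchanged genes. Values were summarised in Python 3.11.15.

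The members and gene lists were chosen with earlier results of these data known. Named were all members, every gene of a pathway list past both thresholds, the tested gene with the largest rise and fall in each list, and the 3 genes most like Il1b. Myd88, Casp1, Sod2, Ptgs2, Mmp13, Lif, Csf3 and the marker genes with values were chosen after their values were seen. Promoter windows were matched by symbol (8 of the 9 genes). Alternatives were pseudocounts of 0.1 and 1, the filter omitted or set to a mean of 2 FPKM, quantile, median-ratio and equal-total scaling, the replicate number as a block, leaving out each library, voom on recovered reads, and the adjusted p alone. For Myd88, Casp1, Sod2, Kit, Egfl7 and the marker genes past both thresholds these were added after the data were seen.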

Additional observations from a re-analysis of the deposited data

Results flagged for a closer look

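In the groups of 4 libraries, 68 sets of values were searched for a library far from the others, and chance alone marks about 1 group in 20. A library stood apart in 4 sets. Il1r2 was at 4.17 FPKM in 0 h p.r. replicate 2, against 2.27 to 2.55 FPKM in the other runner libraries. Il1rap was at 2.59 FPKM in NC replicate 2, against 3.74 to 3.94 FPKM in the other controls, and this library also had the highest share of mitochondrial genes, 31.1% of its FPKM. The ratio of Il18 to Il1b was 10.9 in NC replicate 4 and 4.93 to 5.89 in the other controls. Cxcl2 was at 0.315 FPKM in NC replicate 1 and listed at 0 in the other controls.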

How the results depend on the processing

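Il1b was the 1 member past both thresholds in the main setting and in each alternative. Of 133 values of the 8 genes under the alternatives, 122 kept their direction and side of the thresholds, and 11 turned in direction, all of Il1rap, Il1rl1, Il33 or Il18. Il1rap turned to 0.036 under quantile normalization and ranged from -0.13 to 0.091 when a library was left out, Il1rl1 from -0.026 to 0.20, Il33 from -0.20 to 0.0076 and Il18 from -0.079 to 0.24. The count over all genes, 374, was 171 with equal FPKM totals, 793 by the adjusted p alone, and 195 to 516 when a library was left out, lowest when 0 h p.r. replicate 2 was omitted (with 201 when it was 0 h p.r. replicate 3 and 217 when it was NC replicate 1) and highest when it was 0 h p.r. replicate 4. The causes were not tested. Equal FPKM totals gave 133 higher and 38 lower genes, against 250 and 124. The 13 pathway genes past both thresholds were 9 to 17 under the alternatives. Same-numbered libraries of the groups did not deviate together (r of -0.14 to 0.07), and with the replicate number as a block 212 genes passed, Il1b among them (adjusted p 0.00655). Under the block 10 pathway genes passed, without Map3k8 (adjusted p 0.0769), Sele (0.0845) and Tnfaip3 (0.0911), and of the called markers only Mpo. The adjusted p of Tab1 (0.115), Txnip (0.132), Myd88 (0.0998), Kit (0.0639), Egfl7 (0.103) and Sod2 (0.0511) was then over 0.05. With 7 to 18 reads of Il1b and 5 to 8 of Il1rn per control library, depth limits the size of their folds.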
